A study of Caenorhabditis elegans with 24 samples.

Results

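The hairpin mir-1 of the nematode Caenorhabditis elegans has 2 rows in the deposited count table, cel-miR-1-5p and cel-miR-1-3p (miR-1-5p and miR-1-3p from here on), which are the 2 mature arms cut from it. Both were chosen by name, as 2 of the 434 mature microRNA arms listed, of which 297 had at least 1 read. Small RNA was sequenced from wild-type N2 embryos, the standard laboratory strain, from 60 min to 500 min after the 4-cell stage, with 120, 180 and 225 min as the other early stages and 270, 330 and 410 min between those and the last. Each stage had 3 libraries and each library came from 50 embryos, which were collected by mouth pipette after adults were cut open. No embryo carried a mutation, transgene or drug treatment, so age is the only labelled difference between stages. The 3 samples of a stage are numbered, and nothing given here says that they came from separate cultures, so p-values measure the spread between these samples, which may be technical.

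A microRNA hairpin is cut by Drosha in the nucleus and by Dicer in the cytoplasm, and in most cases 1 arm of the resulting duplex is kept in an Argonaute protein while the other is degraded. The mir-1 family is conserved between worms, flies and vertebrates and is known for its expression in muscle. In the worm it is made in body-wall and pharyngeal muscle, where it is known to act on acetylcholine receptor subunits and on the transcription factor MEF-2, which tune signalling at the neuromuscular junction. The worm arm known as mature miR-1, which carries the conserved family sequence, is the 3p arm. In the deposited counts 6073 of the 6381 mir-1 reads stood under the 5p arm, which goes against that background. Chosen after their values were seen, mir-124, mir-57 and mir-44 also had most reads under the arm not usually called mature. mir-124 had 300 reads under 5p and 17 under 3p, mir-57 had all 1865083 under 3p, and mir-44 had all 476034 under 5p. The table holds no sequences, and whether reads were entered under the opposite arm was not tested, so results are also given for the sum of both arms, which does not depend on it.

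In the Ensembl annotation of the assembly WBcel235, matched by name because the build used for counting is not given in the sources used here, mir-1 lies on chromosome I at 6172662 to 6172757, on the minus strand, over 96 bp. The 5p arm covers 22 nucleotides at 6172716 to 6172737, and the 3p arm covers 21 nucleotides at 6172677 to 6172697. The hairpin lies outside protein-coding genes, with T09B4.3 at 2438 bp and T09B4.4 at 4020 bp as the nearest of these. Both arms lie inside T09B4.14, a non-coding RNA gene of 126 bp on the plus strand at 6172671 to 6172796. Whether counting used the strand is not given in the sources used here, so reads of mir-1 and of this antisense gene cannot be told apart.

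Library totals ran from 88482 reads in replicate 2 at 225 min to 1594151 reads in replicate 3 at 410 min. The correlation of log2 CPM between libraries of a stage was 0.851 to 0.973 across arms, and no library pair of a stage agreed within sampling noise. As a check of the labels, the arms of mir-35 to mir-42, a family known for early embryos, held 4.68 to 5.29% of counts at 60 min and 0.0346 to 0.0698% at 500 min. Arms of 5 microRNA genes known from larvae and adults (let-7, lin-4, mir-48, mir-84 and mir-241; 10 arms, 2 with no read) held 0 to 0.0666% at 60 min and at most 0.0339% at any later stage. These are whole embryos, so muscle identity could not be checked, and fewer muscle cells and less mir-1 per cell cannot be told apart.

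miR-1-5p was close to absent at 60 min, was found in all 3 libraries from 120 min on, and reached its highest stage mean at 225 min. From 120 min onwards every stage was higher than 60 min by test. With 4 reads in all at 60 min, the arm could hardly have come out lower. The 120 min call was lost in a fit of the 60 and 120 min libraries alone. The 3p arm was first read at 180 min and had its highest mean at 500 min, but at the depth of the 120 min libraries a later start than that of the 5p arm could not be shown. The 3p share of mir-1 reads was at most 5.39% in each library up to 330 min and at least 12.8% in replicates 1 and 2 at 410 and 500 min, while replicate 3 stood at 5.97% and 0% there.

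At 60 min the 3 libraries held 0, 3 and 1 reads of miR-1-5p. At 120 min they held 64, 21 and 48 reads, and at 180 min 159, 66 and 165 reads. The counts were 341, 104 and 514 at 225 min, and 1392, 544 and 397 at 270 min. Only 1 of the 24 libraries, replicate 1 at 60 min, had no read of the arm. At 330 min there were 360, 165 and 326 reads, at 410 min 307, 114 and 504 reads, and at 500 min 298, 102 and 78 reads. These counts also follow library depth, so levels below are TMM-scaled CPM (TMM CPM), in which factors make the bulk of arms comparable between libraries.

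On that scale miR-1-5p stood at 0, 30.6 and 4.78 TMM CPM at 60 min (mean 11.8 ± 16.5, SD, n = 3). At 120 min it stood at 237, 105 and 80.7 (141 ± 84.3), all above the highest 60 min library. At 180 min the values were 650.0, 363 and 198 (404 ± 229), which overlap those at 120 min in the lowest library. At 225 min they were 1247, 955 and 993 (1065 ± 159), all above every 180 min library. The level was 1107, 958 and 847 at 270 min (970.5 ± 130.5). It was 1472, 689 and 632 at 330 min (931 ± 469), where replicate 1 stood far above the other 2 and gave the highest single value of all libraries. The last stages were lower in the mean, with 654, 391 and 462 at 410 min (502 ± 136) and 697, 707 and 372 at 500 min (592 ± 191). Ranks were taken on mean CPM of total counts, without TMM factors. Among all arms with reads, miR-1-5p ranked 100th at 60 min, 52nd at 120 min and 28th at its 225 min peak, and it was 35th at 500 min.

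**Figure D1:**
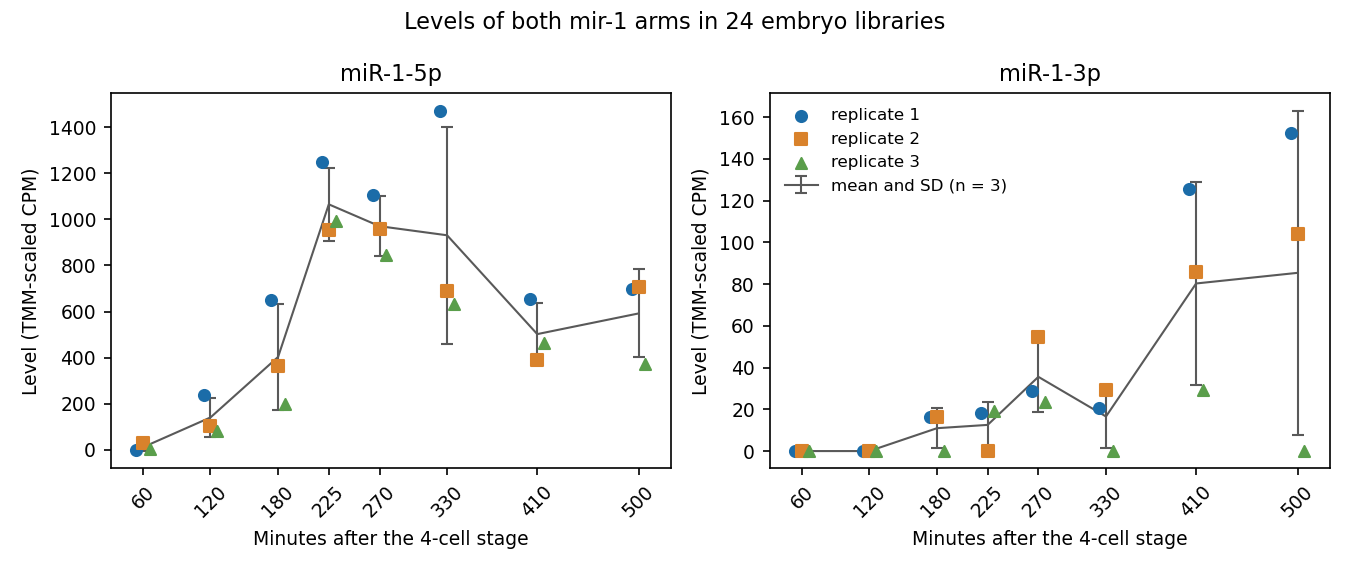
TMM-scaled CPM of miR-1-5p (left) and miR-1-3p (right) against minutes after the 4-cell stage, with 1 point for each library and the mean with SD (n = 3) for each stage; the vertical axes differ. The 5p arm has its highest mean at 225 min (1065) and the 3p arm at 500 min (85.4), where replicate 3 has no read.

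Levels of miR-1-5p differed among the 8 stages (edgeR's quasi-likelihood F test over all 24 libraries, Benjamini-Hochberg adjusted over the 128 arms tested, adjusted p = 3.34e-06). Change over time was common in this table, since 68% of the arms tested passed the same test at an adjusted p under 0.05. Both arms of mir-1 summed gave adjusted p = 3.64e-07 over 93 hairpins, of which 66.7% passed. The share of all counts that mir-1 held was 0.00110 ± 0.00167% at 60 min (SD, n = 3) and 0.0171 ± 0.00443% at 120 min, and it reached 0.141 ± 0.0305% at 225 min. It was 0.0458 ± 0.0186% at 500 min, so mir-1 was a minor part of the reads counted for mature microRNA arms at every stage.

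The onset was tested by setting each later stage against 60 min. Each SE was computed as the size of the log2 fold change over the square root of F. It and the intervals built on it are approximate where reads are few. At 120 min miR-1-5p was higher by 3.66 ± 0.87 (log2 fold change and SE, edgeR, adjusted p = 0.00553), and the ratio of pooled reads was 12.4 with a 95% Poisson interval of 4.72 to 46.1, which covers counting error only and leaves out the spread between libraries. At that stage 2.34% of the arms tested were called higher. At 180 min it was higher by 5.18 ± 0.88 (edgeR adjusted p = 4.5e-05; 15.6% of arms called higher). At 225 min the difference was 6.58 ± 0.91 (edgeR adjusted p = 1.69e-06; 18% of arms called higher), with a pooled ratio of 106 and a counting interval of 41.1 to 388. The stages 270, 330, 410 and 500 min gave 6.45 ± 0.90, 6.38 ± 0.90, 5.50 ± 0.88 and 5.73 ± 0.89, with edgeR adjusted p between 7.06e-07 and 4.82e-06. The share of tested arms called higher at these stages was 19.5%, 26.6%, 32.8% and 34.4% in the same order. In none of these 7 comparisons did a library overlap the 60 min libraries. The share of all tested arms without overlap was not counted, here or for the pairs of stages below. Both arms summed were higher at 500 min than at 60 min by 6.61 ± 0.88 (edgeR adjusted p = 1.55e-07). That fit computed its own TMM factors over hairpins, so its values cannot be set beside those of single arms. At 120 min, with no 3p read, it gave 4.60 for the sum, against 3.66 for miR-1-5p. At 500 min the sum gave 5.77 with total counts and 5.47 in a fit of the compared stages alone. The 60 min libraries held 4 reads of miR-1-5p in all, so the arm passed the count filter through later stages. It could hardly come out lower there than at 60 min, so the p-values are no support for the direction. Replicate 2 at 60 min holds 3 of the 4 reads at that stage, so the size of these differences rests on it. The 120 min call was lost in a fit of the 60 and 120 min libraries alone (4.31, edgeR adjusted p = 0.183). Without that replicate, with filter and scaling factors kept, the 120 min difference was 5.32 and the 225 min difference 8.24.

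Ordered by mean TMM CPM, miR-1-5p ran 225, 270, 330, 500, 410, 180, 120 and 60 min from highest to lowest. Only the last neighbours in that order, 120 and 60 min, differed by the test (edgeR adjusted p = 0.00553). The neighbours 225 and 270 min gave adjusted p = 0.957, 270 and 330 min 0.981, and 330 and 500 min 0.534 (edgeR). The pairs 500 and 410 min gave 1, 410 and 180 min 0.705, and 180 and 120 min 0.185. The order of neighbours from 225 down to 120 min was therefore not resolved. Farther apart, 225 min was above 120 min by 2.92 ± 0.69 (edgeR adjusted p = 0.00271; 5.47% of arms called higher), and 500 min was above 120 min (adjusted p = 0.0114; 28.1% of arms called higher). From 180 to 225 min the difference was 1.40 ± 0.66, but edgeR gave adjusted p = 0.433, in a comparison where 1.56% of arms were called. The libraries of these 2 stages did not overlap, and the share of other arms without overlap was not counted.

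After 225 min the mean of miR-1-5p was lower at 410 and 500 min, and whether that passed the test depended on how libraries were scaled. With TMM, 410 min against 225 min gave a log2 fold change of -1.08 ± 0.65 (edgeR adjusted p = 0.223; 29.7% of arms called). For 500 min against 225 min it gave -0.85 ± 0.65 (edgeR adjusted p = 0.328; 35.9% of arms called), with a 95% interval of -2.22 to 0.53. All 3 libraries of each late stage lay below all 3 at 225 min, but how many other arms separated in this way was not counted. With total counts in place of TMM the 500 min difference was -1.80 ± 0.60 (edgeR adjusted p = 0.0176) and the 410 min difference -1.81 (adjusted p = 0.0198). With DESeq2 size factors the differences were -0.86 (adjusted p = 0.311) and -1.25 (adjusted p = 0.138). Total counts moved the median of all tested arms by -0.86 between 225 and 500 min, against 0.05 with TMM and 0.01 with DESeq2 size factors. Relative to that median, miR-1-5p at 500 min was at -0.90 under TMM, -0.87 under DESeq2 size factors and -0.94 under total counts. At 410 min it was at -1.36, -1.39 and -1.43 in the same order. A change of scaling shifts all arms by about the same amount, so these values are close by construction. Their closeness is no support for a fall.

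**Figure D2:**
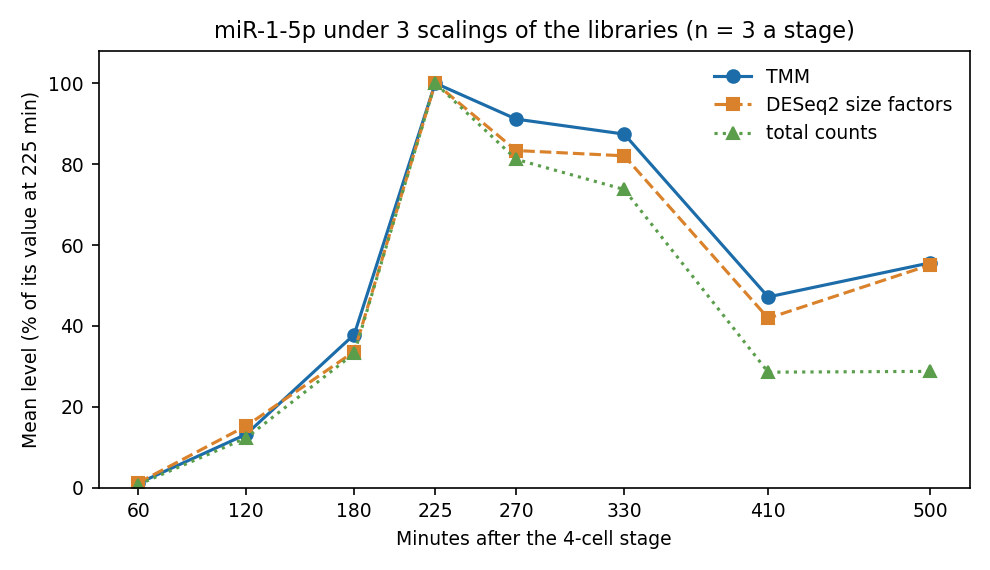
Mean level of miR-1-5p at each stage (n = 3) as a percentage of its own 225 min mean, with libraries scaled by TMM, by DESeq2 size factors or by total counts. The highest mean falls at 225 min in each case, and the 500 min value is 55.6% under TMM, 55.1% under DESeq2 size factors and 28.8% under total counts.

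miR-1-3p had no read in any library at 60 or 120 min, with a mean library total of 199111 and 260648 counts. At 180 min the libraries held 4, 3 and 0 reads, at 225 min 5, 0 and 10, and at 270 min 36, 31 and 11. At 330 min they held 5, 7 and 0 reads, at 410 min 59, 25 and 32, and at 500 min 65, 15 and 0. The arm was therefore read in all 3 libraries only at 270 and 410 min, and in 14 of the 24 libraries in all. Its TMM CPM was 16.4, 16.5 and 0 at 180 min (mean 11.0 ± 9.48, SD, n = 3) and 28.6, 54.6 and 23.5 at 270 min (35.6 ± 16.7). It was 126, 85.8 and 29.3 at 410 min (80.3 ± 48.4) and 152, 104 and 0 at 500 min (85.4 ± 77.8). Replicate 3 was the lowest library at both late stages.

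The level of miR-1-3p differed among the 8 stages with TMM (edgeR adjusted p = 0.0144), and with total counts this was lost (adjusted p = 0.0503). Since every 60 and 120 min library was at 0, folds against those stages are pooled reads set against 3 counts. They leave out the spread between later libraries, so they are not bounds on the fold. The arm passed the count filter through later stages, so it could only be higher there. The p-values against 60 and 120 min are therefore no support for the direction. At 410 min the arm was 8.27-fold above 3 counts at 60 min, with no overlap (edgeR adjusted p = 0.0166). At 500 min it was 13.5-fold above that floor (edgeR adjusted p = 0.0149), but replicate 3 overlapped the 60 min libraries at 0. At 270 min it was 4.49-fold above that floor and did not pass (edgeR adjusted p = 0.0558), though it passed with DESeq2 size factors (adjusted p = 0.0415), with total counts (0.0361), with a replicate block (0.0469), in a fit of the compared stages alone (0.0232) and with DESeq2 (0.0362). With 1 library left out it passed in 20 of 24 fits with scaling anew and in 3 of 24 with scaling kept. At 180, 225 and 330 min the edgeR adjusted p was 0.246, 0.152 and 0.108. Against 3 counts at 120 min, the arm was 12.1-fold higher at 270 min (edgeR adjusted p = 0.0296; 16.4% of arms called higher) and 36.3-fold higher at 500 min (adjusted p = 0.0054). The highest mean fell at 500 min with TMM and DESeq2 size factors but at 410 min with total counts.

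Over all libraries 95.2% of mir-1 reads were of the 5p arm and 4.83% of the 3p arm, a ratio of 19.7. Of 53 hairpins with at least 1000 reads, 20 had more 5p reads and 33 more 3p reads, and the minor arm held under 5% in 41, with a median of 0.698%. The 3p share by stage, in exact 95% intervals that cover counting error only, was as follows. At 120 min no library had a 3p read, out of 133 mir-1 reads, and the exact upper limits of the 3 libraries were 5.60, 16.1 and 7.40%. At 180 min the share was 2.45% and 4.35% in replicates 1 and 2, and in replicate 3 it was 0 of 165 reads, with an exact upper limit of 2.21%. At 225 min it was 1.45%, 0% and 1.91%, and at 270 min 2.52%, 5.39% and 2.70%. At 330 min it was 1.37%, 4.07% and 0%, where 0 of 326 reads in replicate 3 has an exact upper limit of 1.13%. Up to 330 min no library exceeded 5.39%.

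At 410 min the 3p share was 16.1% (12.5 to 20.3) in replicate 1, 18.0% (12.0 to 25.4) in replicate 2 and 5.97% (4.12 to 8.32) in replicate 3. At 500 min it was 17.9% (14.1 to 22.2) and 12.8% (7.36 to 20.3) in replicates 1 and 2, and 0 of 78 reads in replicate 3, with an exact upper limit of 4.62%. The stage mean was 13.4 ± 6.47% at 410 min and 10.2 ± 9.23% at 500 min (SD, n = 3), after 1.81 ± 2.07% at 330 min and 3.54 ± 1.61% at 270 min. In pooled reads the ratio of 5p to 3p was 55.7 at 180 min, 63.9 at 225 min and 29.9 at 270 min. It was 70.9 at 330 min, then 7.97 at 410 min and 5.98 at 500 min. The late libraries of replicates 1 and 2 thus held the 4 highest shares.

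**Figure D3:**
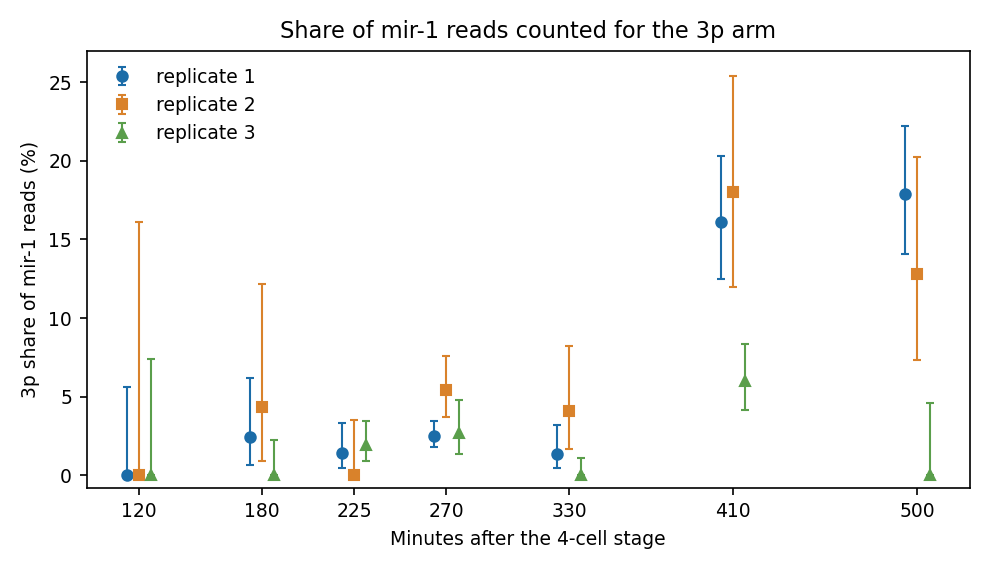
Share of mir-1 reads counted for the 3p arm (percent, with exact 95% intervals for counting error) in each library from 120 min on. Replicates 1 and 2 lie between 12.8 and 18.0% at 410 and 500 min, replicate 3 lies at 5.97 and 0%, and earlier libraries lie at or below 5.39%.

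With 3 libraries a stage, pairs of stages cannot give an exact p under 0.10. The first 4 stages were therefore set against the last 4, among libraries with at least 10 mir-1 reads (9 and 12 libraries). No 60 min library reached 10 mir-1 reads, so the 9 early libraries came from 120, 180 and 225 min only, and the test does not cover 60 min. The 5p share was 98.9 ± 1.55% in the first and 92.8 ± 6.98% in the last, a difference of -6.11 percentage points (exact permutation test over 293930 splits, two-sided, p = 0.0181). It was a single test with no adjustment. Permuted within replicate numbers, the same difference gave exact permutation p = 0.0157. As a log2 ratio of the arms the difference was -1.65 with exact permutation p = 0.0625, so the call depends on the scale. The mean 3p share went from 1.30 to 9.48% in replicate 1, from 1.45 to 10.1% in replicate 2 and from 0.636 to 2.17% in replicate 3. Without the libraries of replicate 3 the difference was -8.40 points (exact permutation p = 0.0196, 6 against 8 libraries). All of these permutation tests treated libraries of different stages as interchangeable replicates. Their p-values therefore do not show that the share changed between 225 and 270 min. The mean 3p share was 0% at 120 min, 2.27% at 180 min and 1.12% at 225 min. It was 3.54% at 270 min and 1.81% at 330 min. The high means lay at 410 and 500 min only (13.4% and 10.2%).

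Replicate 3 differed from the others in mir-1, but not at every stage. Its pooled 3p share was 2.54%, against 5.62% and 6.75% in replicates 1 and 2. From 180 min on it had 3p reads in 3 of 6 libraries, against 6 and 5 of 6. At 225 min its 3p share was the highest of the stage (1.91%, against 1.45% and 0%). At 270 min replicate 3 was above replicate 1 (2.70% against 2.52%). Its miR-1-5p level was the lowest of its stage in 5 of 8 stages and never the highest. Replicate 1 was the highest in 6 of 8 stages. What replicates shared across stages is not given in the sources used here, and its part in the result was not tested.

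Other hairpins known for a restricted tissue gave a comparison in time. Of the 10 other arms from lsy-6, mir-124 and mir-791 (neurons), mir-228 (glia) and mir-60 (intestine), 5 passed the count filter. lsy-6-3p and miR-124-5p had no read at 60 min and passed it through the later stages where they were high, so they could only be higher there, and no count over the 5 is given.

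miR-1-5p was found in all 3 libraries from 120 min. miR-228-3p, from a hairpin known in glia, was too, with 1 read in all at 60 min and 121 at 120 min, and had its highest mean at 410 min. lsy-6-3p, which sets left-right asymmetry between a pair of taste neurons, was first found in all 3 libraries at 330 min, when it stood at 114 ± 34.5 TMM CPM. It held 1 read in all at 225 min, where miR-1-5p had its highest mean, and its own highest mean was 288 ± 74.9 at 410 min. miR-124-5p, the arm of its hairpin not usually called mature, from a microRNA known in sensory neurons, was found in all 3 libraries from 270 min and held 3 reads at 225 min. miR-228-5p, the other glial arm, was present in every library and had its highest mean at 500 min, at 241538 ± 47471 TMM CPM. miR-60-3p, from a hairpin known in the intestine, stood at 548 ± 439 at 60 min and 163 ± 83.1 at 500 min.

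Between 225 and 500 min, where miR-1-5p gave -0.85 (edgeR adjusted p = 0.328), miR-228-5p rose (3.74 on the log2 scale, edgeR adjusted p = 1.38e-06). lsy-6-3p went from 1 read in all to 170, and miR-124-5p from 3 to 62 (edgeR adjusted p = 0.000235 and 0.0286). These 2 arms passed the filter through the later stages, so their direction was set in advance and the p-values are no support for it. miR-60-3p gave -0.56 (edgeR adjusted p = 0.589). The call that miR-60-3p fell from 60 to 500 min (-1.76, edgeR adjusted p = 0.0373; 28.1% of arms called lower) was lost with DESeq2 size factors (-1.06, adjusted p = 0.148) and in 4 of 6 fits that left out a library of these stages. Differences in timing between mir-1 and these arms were not tested.

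**Figure D4:**
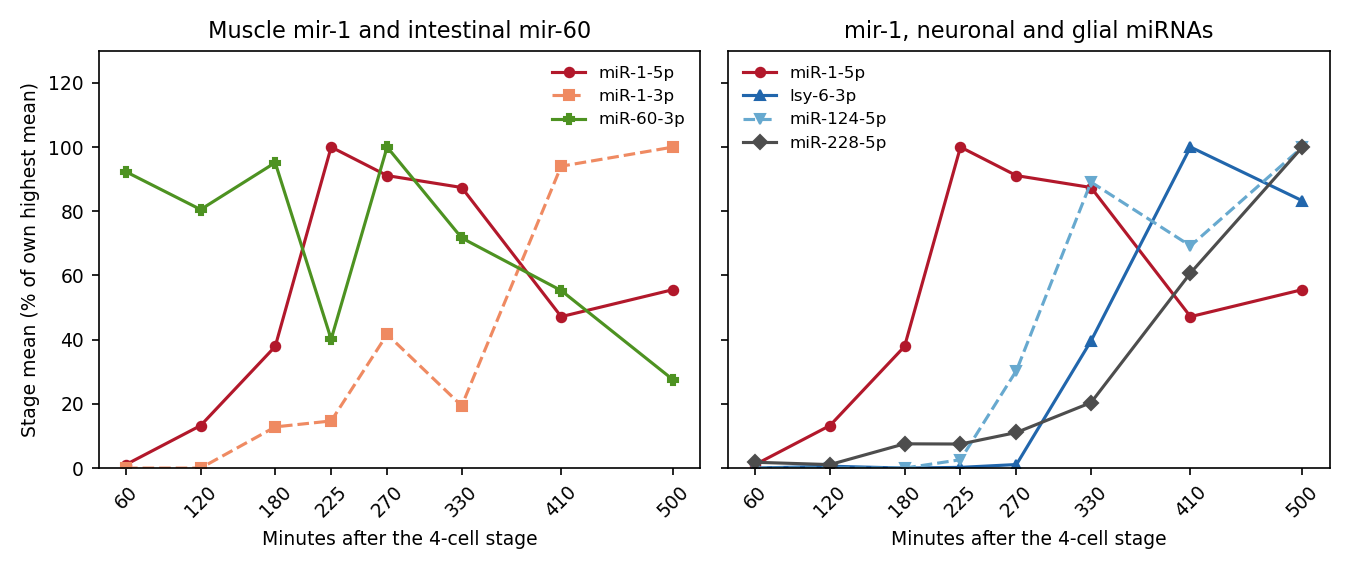
Stage means (n = 3) of TMM-scaled levels as a percentage of each arm's own highest stage mean, for both mir-1 arms with miR-60-3p (left) and for miR-1-5p with lsy-6-3p, miR-124-5p and miR-228-5p (right). miR-1-5p reaches its highest mean at 225 min, lsy-6-3p at 410 min, and miR-124-5p and miR-228-5p at 500 min.

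The arms whose pattern was most like mir-1 were ranked by Pearson correlation of log2 CPM with the summed mir-1 arms over the 24 libraries, which share depth and scaling. The highest 5 of 126 were miR-79-5p (r = 0.872, Spearman 0.548), miR-54-3p (0.835, 0.615), miR-52-5p (0.816, 0.627), miR-228-3p (0.811, 0.411) and miR-58a-5p (0.802, 0.834). The median r over the 126 arms was 0.121. miR-79-5p and miR-54-3p had their highest stage mean of log2 CPM at 330 min and the other three at 410 min. On the scale of mean TMM CPM, on which the 225 min peak of miR-1-5p was given, the order changed. There miR-79-5p was highest at 330 min (298), miR-54-3p at 410 min (727), miR-52-5p at 180 min (7484), miR-228-3p at 410 min (4255) and miR-58a-5p at 330 min (8381). Back on the scale of mean log2 CPM, of the 128 tested arms, including miR-1-5p, 4 had their highest mean at 225 min. On that scale 33 had it at 60 min, 25 at 410 min and 24 at 500 min. Peaks of mean TMM CPM were not counted over all arms.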

How the data were processed

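Small RNA libraries were made with a TruSeq small RNA kit from TRIzol extracts, per the labels' protocols. The authors deposited whole-number read counts per mature arm, made with Bowtie and HTSeq per the submitters' processing notes. Tool versions, genome build, strand setting and the handling of multi-mapped reads were not given in the sources used here.

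The counts were tested as deposited in R 4.3.3 with edgeR 4.0.16 (quasi-likelihood F test, TMM factors 0.567 to 1.76, filterByExpr with a minimum count of 10, robust, 1 mean per stage). All 24 libraries entered the fit, 128 arms were tested, and p-values were Benjamini-Hochberg adjusted with a threshold of 0.05. Depth was 88482 to 1594151 counts per library, with a common biological coefficient of variation of 0.706. The fit was tested on simulated data. The arm share was tested with an exact permutation test over libraries. Alternatives were DESeq2 1.42.0, its size factors, total counts, no filter, a replicate block and leaving out each library. Named arms were both mir-1 arms, the tissue-restricted hairpins and the 5 arms most correlated with mir-1. The members and lists were chosen with earlier results of these data known. Arms sharing a seed with mir-1 were not analysed here.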

Additional observations from a re-analysis of the deposited data

How the results depend on the processing

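Every miR-1-5p call against 60 min held in each of the 24 fits that left out a library, whether scaling factors were computed anew or kept, and so did the miR-1-3p calls at 410 and 500 min and both tests among stages. In a fit of the compared stages alone, miR-1-5p 120 min against 60 min gave 4.31 (adjusted p = 0.183). miR-1-3p 270 min against 60 min became called with DESeq2 size factors (6.90), total counts (7.15), the replicate block (6.83, adjusted p = 0.0469), the compared stages alone (7.10) and DESeq2 (4.85). Leaving out 1 library moved it from 6.37 to 7.21. miR-1-3p 330 min against 60 min ranged from 4.96 to 6.50 and was called only without replicate 3 at 330 min. miR-1-5p 500 min against 225 min was called with total counts (-1.80). miR-1-3p among the 8 stages was lost with total counts (adjusted p = 0.0503). miR-1-3p 500 min against 410 min reversed to -0.16 with total counts and -0.31 with the replicate block, and ranged from -0.65 to 0.68 with a library left out. miR-1-5p 500 min against 410 min ranged from -0.13 to 0.48. The arm share as a log2 ratio gave -1.65 (exact permutation p = 0.0625). The cause of these changes was not tested. Same-numbered libraries deviated together with a median correlation of 0.0940, against -0.0532 for libraries of other numbers, and 40 of 84 same-numbered pairs were over 0.1. Of the 24 libraries, 21 correlated best with their own number. The main fit still had no replicate block, and the results that changed with a block are given above. Fits with factors kept, the within-number permutation and the fit without replicate 3 were chosen after seeing the data. At 60 min, 4 reads of miR-1-5p and 0 of miR-1-3p limit every fold against that stage. With no read there, miR-1-3p could only come out higher at later stages, and miR-1-5p could hardly come out lower. The p-values against 60 min are therefore no support for the direction.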

Other observations

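The tissue-restricted arms that did not pass the count filter held few reads over all 24 libraries. miR-791-5p held 24 reads and miR-791-3p held 1. miR-124-3p held 17 reads, miR-60-5p held 70, and lsy-6-5p held 0.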
